A study of Homo sapiens with 4 samples.

Results

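GADL1, GRB14, TNFRSF19, LBH, XDH, HOPX and PRDM16 were followed as 7 ventricular-type genes, among the 60234 Ensembl genes of the count table, in cardiac cultures with and without retinoic acid (RA). GADL1, GRB14 and TNFRSF19 were chosen by their measured levels, being among the genes furthest below the control in RA-treated GFP-positive cells, and LBH, XDH, HOPX and PRDM16 because they are known as ventricular markers. Values of the RA contrast in GFP-positive cells are therefore given as a description. The cells came from NKX2.5:GFP hESCs, an established human embryonic stem cell line in which eGFP was inserted into the NKX2-5 locus and the other allele is wild type. Every group carried this reporter, so that fluorescence marks cells in which this cardiac gene is active. The cells were differentiated as spin embryoid bodies with a cytokine cocktail. They were sorted at day 31 by the series description into 4 populations, with 1 library each: RA-treated GFP-positive and GFP-negative cells, given 1 µM RA from day 4 to day 7, and control (CTR) GFP-positive and GFP-negative cells, given DMSO over the same days. The labels do not say how many cultures stood behind a library, and RA and CTR cells grew in separate cultures, so that RA and culture cannot be told apart.

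RA is a signal of the posterior heart field, and in the embryo it favors atrial and inflow over ventricular fate. Ventricular cardiomyocytes are known by regulators such as IRX4 and HEY2, and their outer, compact layer by PRDM16. The 7 genes do not form a pathway. PRDM16, a zinc finger transcription factor, LBH, a transcription cofactor of limb bud and heart, and HOPX, a homeodomain protein that does not bind DNA and restrains serum response factor, act in the nucleus. TNFRSF19 (also TROY) is a receptor of the TNF receptor superfamily, and GRB14 is an adaptor that binds the activated insulin receptor and dampens it. GADL1 is a decarboxylase of acidic amino acids that forms beta-alanine, and XDH carries out the last steps of purine breakdown, to uric acid.

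Libraries held 4371101 to 28643091 counted reads, the smallest being that of CTR GFP-negative cells. The limit that 0 reads allows, 3 reads, corresponded to 0.639 CPM there and 0.105 to 0.117 CPM in the others. NKX2-5 stood at 463 CPM in RA-treated and 593 CPM in CTR GFP-positive cells, against 9.74 CPM and 14.5 CPM in the GFP-negative cells, and the cardiomyocyte marker TNNT2 also followed the sort, at 4371 CPM and 4776 CPM against 126 CPM and 230.4 CPM. Levels are CPM, read counts relative to library size and scaled with TMM factors, differences are in log2(CPM + 1), which understates the change of low genes, and ratios are ratios of CPM. Intervals, at the 95% level, reflect counting error alone. As each condition had a single library, differences between conditions have no replicate check and were not tested. In these bulk populations fewer cells of a type and less RNA per cell cannot be told apart.

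In GFP-positive cells 5 of the 7 genes were at least 2-fold lower with RA than in CTR, and these were GADL1, GRB14, TNFRSF19, PRDM16 and LBH. Among the 11186 genes reaching 10 CPM in one of the GFP-positive libraries, 1.67% were at least 2-fold lower and 4.14% at least 2-fold higher, but the RA contrast was used in choosing members, so nothing is read from the count. XDH and HOPX stayed under 10 CPM in both libraries and were not among the genes counted. XDH differed by -0.62 on the log2 scale, and HOPX was slightly higher with RA, by 0.28, so that the description as a gene that falls with RA did not hold for HOPX. CTR GFP-positive cells had the highest level of the 4 libraries for 6 of the 7 genes, all but HOPX. Of all genes with at least 1 CPM in any library 27% had their highest level there, but nothing is read from the count, since the choice on these libraries largely fixed it for GADL1, GRB14 and TNFRSF19. The lead of XDH over RA-treated GFP-negative cells was within counting error (ratio 1.27, 0.945 to 1.72).

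**Figure D1:**
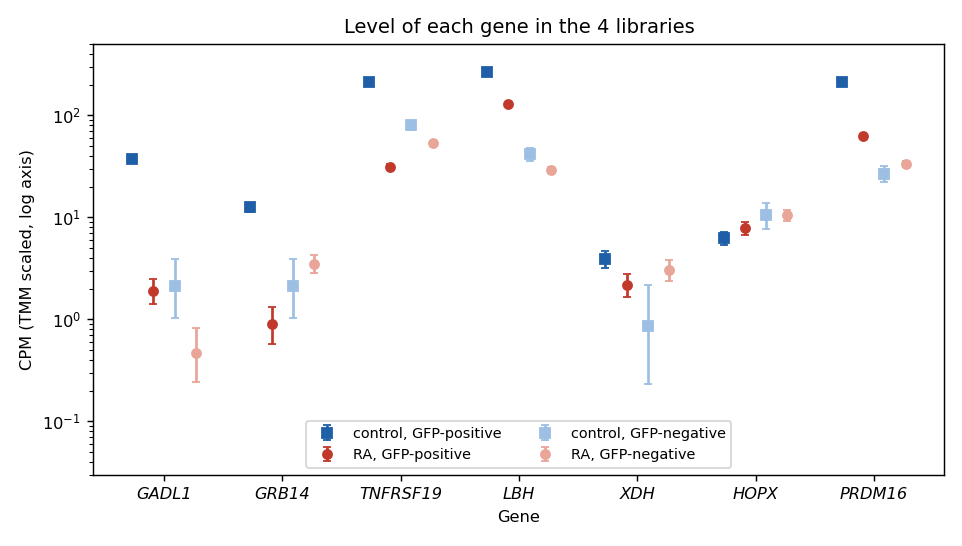
Level of each of the 7 genes, in CPM on a log axis, in CTR (squares) and RA-treated (circles) cells, GFP-positive in dark and GFP-negative in light color, with exact Poisson 95% intervals, which are hidden by the symbol where narrow. CTR GFP-positive cells were highest for all genes but HOPX, for XDH within counting error, and HOPX lay between 6.21 and 10.4 CPM in all 4 libraries.

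PRDM16 (ENSG00000142611; chromosome 1 of GRCh37, 2985732 to 3355185, plus strand) was at 214 CPM in CTR GFP-positive cells, on 6123 reads, and at 62.9 CPM with RA, on 1682 reads. In GFP-negative cells it was at 26.8 CPM in CTR and 33.1 CPM with RA, on 126 and 850 reads. The CTR GFP-positive library thus stood well above the other libraries, and RA-treated GFP-positive cells came next. The ratio of RA to CTR in GFP-positive cells was 0.294 (0.279 to 0.311), a difference of -1.75, rank 41 from the lowest among the 11186 genes. In GFP-negative cells the ratio was 1.23 (1.02 to 1.5), a difference of 0.29, in the other direction.

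LBH (ENSG00000213626; chromosome 2, 30454400 to 30546596, plus strand) was at 266 CPM in CTR GFP-positive cells, 128 CPM in RA-treated GFP-positive cells, 41.5 CPM in CTR GFP-negative cells and 29.0 CPM in RA-treated GFP-negative cells. Reads were 7634, 3422, 195 and 745 in the same order. Both GFP-positive libraries lay above both GFP-negative libraries, and RA was lower than CTR in each fraction. The ratio of RA to CTR was 0.480 (0.461 to 0.50) in GFP-positive cells, a difference of -1.05 at rank 171, and 0.699 (0.596 to 0.823) in GFP-negative cells, a difference of -0.50. LBH lay close to the 2-fold limit, and with libraries scaled to the summed reads of 16 cardiomyocyte markers its difference in GFP-positive cells was -0.88.

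HOPX (ENSG00000171476; chromosome 4, 57514155 to 57548043, minus strand) had the flattest pattern of the 7 genes. It was at 6.21 CPM in CTR and 7.78 CPM in RA-treated GFP-positive cells, and at 10.4 CPM in both GFP-negative libraries, on 178 and 208 reads in the GFP-positive and 49 (CTR) and 268 (RA) reads in the GFP-negative libraries. The ratio of RA to CTR was 1.25 (1.02 to 1.54) in GFP-positive and 1.00 (0.736 to 1.39) in GFP-negative cells. HOPX was the only gene of the 7 that was below its GFP-negative level in GFP-positive cells of both cultures, by 0.67 in CTR and 0.38 with RA on the log2 scale.

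TNFRSF19 (ENSG00000127863; chromosome 13, 24144509 to 24250243, plus strand) was at 212 CPM in CTR GFP-positive cells on 6077 reads and at 31.0 CPM with RA on 828 reads. The CTR and RA-treated GFP-negative cells were at 79.6 CPM and 53.6 CPM, on 374 and 1376 reads. RA-treated GFP-positive cells, the lowest of the 4, were therefore below both GFP-negative libraries, and every neighboring pair in the order of levels differed by more than counting error. The ratio of RA to CTR was 0.146 (0.136 to 0.157) in GFP-positive cells, a difference of -2.74 at rank 5, and 0.673 (0.60 to 0.757) in GFP-negative cells, a difference of -0.56.

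GRB14 (ENSG00000115290; chromosome 2, 165348927 to 165477992, minus strand) was at 12.6 CPM in CTR GFP-positive cells on 360 reads and at 0.897 CPM with RA on 24 reads. In GFP-negative cells it was at 2.13 CPM in CTR, on 10 reads, and 3.51 CPM with RA, on 90 reads. RA-treated GFP-positive cells were again the lowest of the 4 libraries, and the ratio of RA to CTR there was 0.0714 (0.0452 to 0.108), a difference of -2.84 at rank 4. GRB14 reached 10 CPM only through the library where it was high. In GFP-negative cells its ratio was 1.65 (0.855 to 3.55), and no difference was detectable at this depth.

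GADL1 (ENSG00000144644; chromosome 3, 30767689 to 30936153, minus strand) had the largest difference below CTR of all 11186 genes in GFP-positive cells. It was at 37.7 CPM in CTR on 1080 reads and at 1.91 CPM with RA on 51 reads, a ratio of 0.0506 (0.0374 to 0.0670) and a difference of -3.73. In GFP-negative cells it was at 2.13 CPM in CTR, on 10 reads, and 0.468 CPM with RA, on 12 reads, with a ratio of 0.220 (0.0869 to 0.567) and a difference of -1.09. Only the CTR GFP-positive library held GADL1 at more than a few CPM, and CTR GFP-negative and RA-treated GFP-positive cells did not differ beyond counting error (ratio 1.12, 0.505 to 2.22).

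XDH (ENSG00000158125; chromosome 2, 31557187 to 31637608, minus strand) was low throughout, at 3.87 CPM in CTR and 2.17 CPM in RA-treated GFP-positive cells, on 111 and 58 reads, and at 0.852 CPM and 3.04 CPM in CTR and RA-treated GFP-negative cells, on 4 and 78 reads. No neighbors in the order of its levels differed beyond counting error. The ratio of RA to CTR was 0.560 (0.400 to 0.776) in GFP-positive cells and 3.57 (1.34 to 13.4) in GFP-negative cells. The latter rests on the 4 reads of the shallow CTR GFP-negative library.

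GADL1, GRB14 and TNFRSF19 held ranks 1, 4 and 5 from the lowest, with KCNQ5, a potassium channel, at -3.04 and HEY2 at -2.87 between them. The next gene after TNFRSF19 was IRX4, at -2.62. Relative to exon length, LBH was the most abundant of the 7 in CTR GFP-positive cells, at 58.8 CPM per kb of exon, followed by TNFRSF19 at 41.5, PRDM16 at 21.9, GADL1 at 5.21, GRB14 at 4.19, HOPX at 0.804 and XDH at 0.639. In RA-treated GFP-positive cells LBH was still first, at 28.2 CPM per kb, PRDM16 (6.44) and TNFRSF19 (6.06) were nearly level, HOPX followed at 1.01, and XDH (0.358), GRB14 (0.299) and GADL1 (0.264) came last. Exon length here counts every base that is exon in any annotated transcript, so that the order per kb depends on the annotation. GADL1 and GRB14 went from above HOPX to below it, in CPM as well as per kb, and their fall was part of the choice. In the annotation used here no exon base of the 7 genes was shared with another gene.

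**Figure D2:**
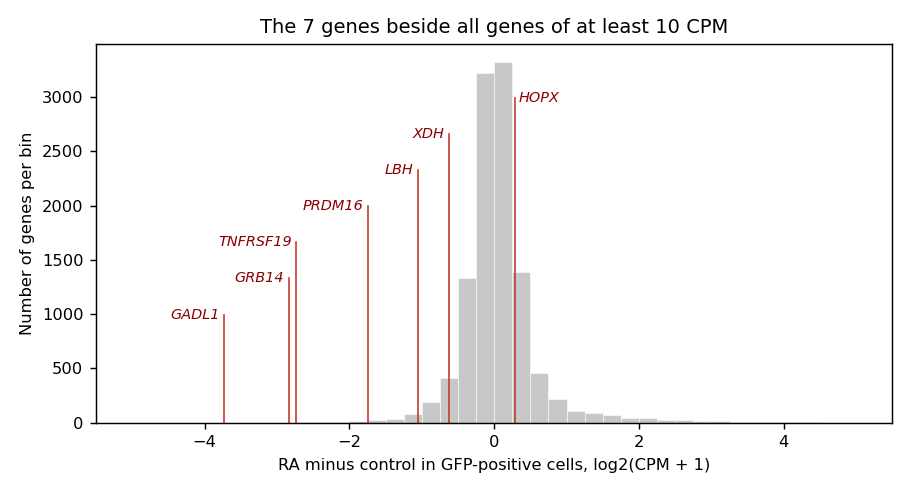
Number of genes per bin of the RA minus CTR difference in GFP-positive cells, in log2(CPM + 1), for the 11186 genes reaching 10 CPM in one of them, with values beyond -5 and 5 put in the outermost bins. Red lines mark the 7 genes and their heights carry no value. They run from GADL1 at -3.73 to HOPX at 0.28, and XDH and HOPX are drawn although they are under 10 CPM.

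In GFP-negative cells 4 of the 7 genes reached 10 CPM, and none of them was at least 2-fold lower or higher with RA. Over the 11606 genes reaching 10 CPM in one of the GFP-negative libraries, 3.18% were at least 2-fold lower and 4.95% at least 2-fold higher. TNFRSF19 and LBH were lower by 0.56 and 0.50, PRDM16 was higher by 0.29 and HOPX was at 0.00. Of all genes, 369 were lower and 574 higher with TMM factors, against 512 and 448 when scaled by library size alone and 485 and 446 by library size without mitochondrial and the 10 most abundant genes. Under both scalings the differences of TNFRSF19, LBH and PRDM16 kept their sign, but when scaled to the summed reads of the 16 cardiomyocyte markers TNFRSF19 was at -0.01, LBH at 0.04 and PRDM16 at 0.83. Below 10 CPM, GADL1 was lower by 1.09 and XDH higher by 1.13, on 10 and 4 reads in CTR, the only ones of the 7 past 2-fold with a minimum of 1 CPM, where 7.61% of genes were lower and 8.69% higher. Markers of other cells differed in the same pair of libraries. Of 12 gut and liver endoderm markers 10 were at least 2-fold higher with RA and 1 lower, with sums of 799.7 CPM against 96.9 CPM in CTR, and of 15 neural and eye markers 1 was higher and 11 lower, with sums of 189.8 CPM against 853 CPM. Among all genes with at least 4 reads in one of these libraries, 6.43% were at least 2-fold higher and 5.63% lower. FOXA2 had no reads in CTR. Of 16 cardiomyocyte markers 5 were at least 2-fold lower, with sums of 1026 CPM and 1509 CPM. The part of these cells in the differences of the 7 genes, and in the ratios between fractions that use them, was not tested.

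Set side by side, the RA ratio in GFP-positive cells divided by that in GFP-negative cells was lowest for GRB14, at 0.0434 (approximate Poisson interval 0.0200 to 0.0940). It was 0.157 (0.0547 to 0.450) for XDH, 0.217 (0.189 to 0.248) for TNFRSF19, 0.230 (0.0951 to 0.558) for GADL1 and 0.238 (0.196 to 0.290) for PRDM16. LBH was closer to 1, at 0.687 (0.584 to 0.808), and the interval of HOPX (1.25, 0.869 to 1.80) included 1. The RA ratio in GFP-positive cells is the one by which GADL1, GRB14 and TNFRSF19 were chosen. Low values of these genes were therefore largely built in, and nothing is read from them. The values of GADL1, GRB14 and XDH rest on 10, 10 and 4 reads in CTR GFP-negative cells. A difference between the fractions beyond counting error could not be tested with 1 library each.

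**Figure D3:**
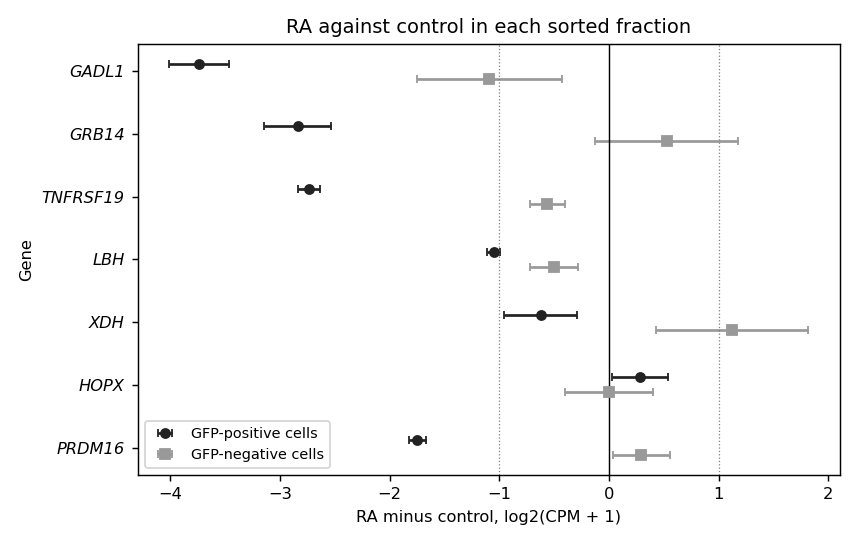
RA minus CTR difference in log2(CPM + 1) for each gene in GFP-positive (black circles) and GFP-negative (gray squares) cells, with 95% intervals from Poisson counting error and dotted lines at 2-fold. In GFP-positive cells values ran from -3.73 (GADL1) to 0.28 (HOPX), and in GFP-negative cells from -1.09 (GADL1) to 1.13 (XDH).

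The sort compares cells with and without activity of the NKX2-5 locus within a culture. In CTR cultures 5 of the 6 genes that reached 10 CPM in either library exceeded their GFP-negative level at least 2-fold in GFP-positive cells and none was 2-fold below it, against 11.9% and 13.3% of the 11806 genes. This contrast contains the CTR GFP-positive library through which GADL1, GRB14 and TNFRSF19 were chosen, and GADL1 and GRB14 reached 10 CPM only there, so nothing is read from the count. For the marker genes, PRDM16 was 7.96-fold higher (6.68 to 9.58) and LBH 6.42-fold higher (5.56 to 7.43), whereas HOPX had a ratio of 0.595 (0.432 to 0.834). GADL1 was 17.7-fold higher (9.59 to 37), GRB14 5.90-fold (3.17 to 12.4) and TNFRSF19 2.66-fold (2.40 to 2.96). XDH, under 10 CPM, had a ratio of 4.55 (1.73 to 17.0).

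In RA cultures only LBH, of 4 genes that reached 10 CPM, was at least 2-fold higher in GFP-positive cells and none was 2-fold lower, against 9.97% and 12.4% of the 11850 genes. Its ratio was 4.41 (4.07 to 4.78), and PRDM16 was 1.90-fold higher (1.75 to 2.06). TNFRSF19 was lower in GFP-positive cells, with a ratio of 0.577 (0.529 to 0.630), and so was GRB14, with 0.256 (0.156 to 0.405), the opposite order of fractions from the CTR cultures. Since GRB14 and TNFRSF19 were chosen for a low level in RA-treated against CTR GFP-positive cells, a lower fraction ratio with RA was largely fixed by the choice, and nothing is read from it or from the count. GADL1 kept a ratio of 4.08 (2.14 to 8.40) on 51 and 12 reads, and that of XDH, 0.713, had an interval of 0.499 to 1.02.

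**Figure D4:**
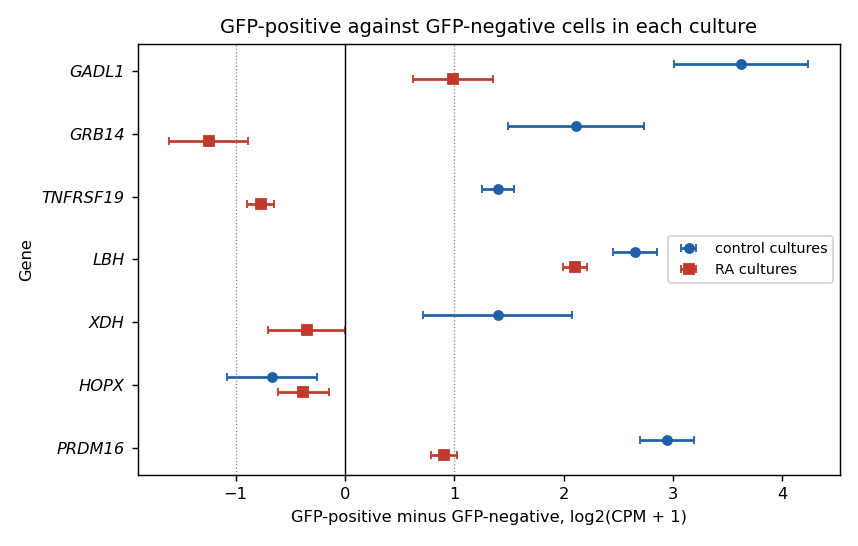
GFP-positive minus GFP-negative difference in log2(CPM + 1) for each gene in CTR (blue circles) and RA (red squares) cultures, with 95% intervals from Poisson counting error and dotted lines at 2-fold. GRB14 went from 2.12 in CTR to -1.25 with RA and TNFRSF19 from 1.40 to -0.77, whereas LBH was at 2.65 and 2.10.

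Markers of other cell types moved with RA in the same pair of GFP-positive libraries. Among the 26551 genes with at least 4 reads in one of them, 3.35% were at least 2-fold higher and 1.4% lower. All 10 fibroblast markers were at least 2-fold higher with RA, and their summed level was 15417 CPM against 4005 CPM in CTR, with none at 0 reads. In the GFP-negative cells it was 62697 CPM and 32741 CPM, RA first. Of 8 smooth muscle markers 5 were at least 2-fold higher with RA in GFP-positive cells, among them MYH11 at 115 CPM against 3.35 CPM. Their sums were 1615 CPM and 643 CPM, and in the GFP-negative cells 2139 CPM and 1200 CPM, RA first. MYH11 was at 28.4 CPM and 23.2 CPM there, so that with RA its level was larger in the GFP-positive fraction. In RA cultures 4 of the 8 stood above their GFP-negative level, 3 at least 2-fold, and 4 below it, 2 at least 2-fold. Which cells of the GFP-positive libraries held these transcripts was not tested. The 16 cardiomyocyte markers summed to 19941 CPM with RA and 22459 CPM in CTR, with a median difference of -0.18 and none at least 2-fold different. Scaled to this sum, GADL1, GRB14, TNFRSF19 and PRDM16 were still at least 2-fold lower with RA and LBH was not. This scaling moved the median of all genes from 0.02 to 0.19 in GFP-positive cells, and left 123 genes lower and 605 higher there in place of 187 and 463, and 107 lower and 2315 higher in GFP-negative cells. The part of the other cells in the differences of the 7 genes was not tested.

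Other markers were at lower levels in GFP-positive cells. For their counts, too, the shares over all genes with at least 4 reads were 3.35% higher and 1.4% lower. Of 8 endothelial markers 1 was at least 2-fold higher with RA, and their sums were 21.7 CPM with RA and 19.8 CPM in CTR, where VWF and ESAM had no reads. Epicardial markers, 2 of 8 higher and 2 lower, summed to 252 CPM and 325 CPM. Gut and liver endoderm markers, 3 of 12 higher and 1 lower, summed to 46.9 CPM and 14.0 CPM, with FOXA1, FOXA2, HNF4A and CDX2 at 0 reads in CTR. Neural and eye markers, 1 of 15 higher and 2 lower, summed to 142 CPM and 121 CPM, with SOX1 and SIX6 at 0 reads with RA. None of 6 pluripotency markers with at least 4 reads differed 2-fold in log2(CPM + 1), with sums of 20.0 CPM and 13.8 CPM and NANOG at 0 reads in CTR. That scale understates low genes. All 6 were higher with RA, and POU5F1 had a ratio of CPM of 28.9 (4.77 to 1184) on 27 and 1 reads. Of 8 proliferation markers 3 were at least 2-fold higher, among them MKI67, and the sums were 113 CPM and 63.0 CPM.

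Beside other chamber markers, the 7 genes can be placed by size. Of 11 further ventricular markers with at least 4 reads in either GFP-positive library, 8 were at least 2-fold lower with RA and 1 higher, with a median of -1.67, against 1.4% and 3.35% of the 26551 genes that met this limit and a median of 0.00 over them. HEY2 (8.15 CPM with RA, 66.0 CPM in CTR), IRX4 (38.3 and 241 CPM), MYL2 (4.00 and 20.2 CPM) and HAND1 (3.74 and 18.1 CPM) had the largest differences among those reaching 10 CPM. GADL1 was further below CTR than any of them, and LBH less so than these 4. As GADL1 was chosen by its difference in this contrast, nothing is read from its place. Of 11 atrial markers 5 were at least 2-fold higher and none lower, with a median of 0.73.

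Genes that share a pathway or family with the 7 were mostly near 0 in GFP-positive cells. Of 16 genes of beta-alanine, taurine and carnosine metabolism, none was at least 2-fold lower with RA and 2 were higher, with a median of 0.29. These were GAD1, a glutamate decarboxylase, at 12.7 CPM against 1.88 CPM, and SLC6A6, the taurine transporter, at 73.1 CPM against 22.3 CPM, both on the other side of CTR from GADL1. Of 19 genes of proximal insulin receptor signaling none passed 2-fold in either direction, with a median of 0.04. IRS1, a docking protein of the insulin receptor, was at 97.1 CPM against 48.9 CPM, a difference of 0.98, and AKT2 was lower by 0.39.

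Of 25 TNF receptor superfamily genes 1 was at least 2-fold lower, EDA2R (5.98 CPM with RA, 15.1 CPM in CTR), and 2 were higher, with a median of 0.01. The higher ones were NGFR, the low-affinity neurotrophin receptor, at 127 CPM against 41.9 CPM, and TNFRSF9, named after its values were seen, at 3.37 CPM against 0.105 CPM. Of 18 genes of purine breakdown and molybdenum cofactor formation, NT5E, which forms adenosine at the cell surface, was at least 2-fold higher (4.52 CPM against 0.768 CPM) and none was lower, with a median of 0.01. Of 16 genes of the PRDM family and its partners, MECOM, the closest relative of PRDM16, was at least 2-fold higher (27.0 CPM against 11.7 CPM) and none was lower, and PRDM6 was at 0.91. Of 11 targets of Wnt signaling 1 was at least 2-fold higher, LGR5 (11 CPM against 1.40 CPM), and none was lower. None of 9 partners of HOPX and serum response factor passed 2-fold, the largest difference being -0.46 for MRTFA, a coactivator of that factor.

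The genes of most similar pattern were found by the root mean square difference of log2(CPM + 1) over the 4 libraries after centering each gene, among 12161 named genes with at least 10 CPM in any library, which describes likeness over 4 points only. Closest to GADL1 were KCNQ5 at 0.43, PEG10 at 0.61 and EGFEM1P at 0.66. Close to GRB14 were TNFRSF19 itself, at 0.39, and NUP62CL at 0.40, and the closest to TNFRSF19 were NUP62CL at 0.18, HEY2 at 0.29 and PDGFD at 0.38. LBH was nearest to STARD4-AS1 at 0.07, GPRIN3 at 0.09 and JPH1 at 0.11, and PRDM16 to GPAT3 at 0.02, LINC02082 at 0.12 and MAT1A at 0.16. XDH was nearest to CLDN9 at 0.06, LTBP1 at 0.07 and NIPAL1 at 0.08, and HOPX to NFE2L2 at 0.01, PGRMC1 at 0.02 and PARD6G at 0.02. Close neighbors are easier to find for a pattern with little spread, such as that of HOPX. Among the 7 genes, GRB14 and TNFRSF19 (0.39) and LBH and PRDM16 (0.44) were the most alike, and GADL1 and HOPX (2.04) the least. GADL1, GRB14 and TNFRSF19 were chosen by their GFP-positive libraries, which partly fixed their patterns. Nothing is therefore read from how alike these genes were to each other, to HOPX or to KCNQ5 and HEY2.

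Start regions were taken from RefSeq (GRCh38.p14), where 6 of the 7 genes were matched with 9 windows of 250 bases before to 50 after a start site. The letters AGGTCA, the hexamer recognized by RA receptors and other nuclear receptors, were searched on both strands. So were the variant hexamer AGTTCA, the TEAD factor site GGAATG, the core AAGTG of the NKX2-5 site, the GATA factor site AGATAA and the TATA box TATAAA. The hexamer AGGTCA occurred in 2 of the 9 windows, those of XDH and of the upstream start of HOPX, and in 13.8% of all 35116 windows. AAGTG occurred in windows of GADL1, XDH and HOPX and in 43.1% of all windows, and TATAAA in that of LBH and in 11.5%. A TNFRSF19 window held AGTTCA, found in 10.4% of all windows, and also the GATA factor site, found in 10.3%. The TEAD factor site was in none of the 9 windows and in 14% of all. The 3 stretches from 200 bases before to 30 after the start site are shown 5′ to 3′, with these letters or their complement in capitals: GADL1, the gene furthest below CTR, LBH, the most abundant per length, and XDH, whose window holds AGGTCA at the start site.
GADL1 (chr3:30894632-30894861, minus strand): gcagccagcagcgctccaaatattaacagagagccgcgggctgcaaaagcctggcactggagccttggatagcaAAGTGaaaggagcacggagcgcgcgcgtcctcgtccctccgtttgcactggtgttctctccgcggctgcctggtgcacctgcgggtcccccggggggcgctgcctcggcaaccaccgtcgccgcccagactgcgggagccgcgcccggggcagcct
LBH (chr2:30231334-30231563, plus strand): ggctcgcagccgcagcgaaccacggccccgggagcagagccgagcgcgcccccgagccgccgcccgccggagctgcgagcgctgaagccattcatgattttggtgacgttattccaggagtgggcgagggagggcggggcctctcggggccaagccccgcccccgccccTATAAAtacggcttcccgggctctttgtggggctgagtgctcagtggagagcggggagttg
XDH (chr2:31414713-31414942, minus strand): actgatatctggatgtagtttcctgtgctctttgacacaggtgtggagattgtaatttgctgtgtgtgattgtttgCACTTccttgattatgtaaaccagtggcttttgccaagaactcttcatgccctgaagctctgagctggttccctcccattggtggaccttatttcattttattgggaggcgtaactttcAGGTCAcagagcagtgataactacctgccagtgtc
The GADL1 and LBH windows were rich in G and C, at 68% and 71.3% of bases with 26 and 36 CG pairs, against a median of 58.7% and 14 over all windows, and that of XDH was at 47% with 3. A match of these letters is not a bound site, and factor binding was not measured here.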

How the data were processed

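RNA of 4 sorted populations was measured, with 1 library per condition. The authors trimmed the paired reads, aligned them to a custom hg19 genome with GSNAP, keeping uniquely placed reads, sorted them with SAMtools 0.1.18 and counted them per Ensembl gene with HTSeq 0.6.1p1 without using strand, tool versions being those of the submitters' processing notes. The deposited values are these raw read counts, with no normalization, and of the Ensembl annotation the release is not given in the sources used here. Genes with near-identical copies lose reads through the unique placement.

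Gene names were matched by Ensembl identifier for 43521 of 60234 genes, and coordinates and exon lengths are those of GENCODE v44 lifted to GRCh37, the same assembly as hg19. CPM were computed from library sizes multiplied by TMM factors (0.951 to 1.07) of edgeR 4.0.16 in R 4.3.3, and differences were taken in log2(CPM + 1). Exact Poisson intervals are given for CPM and Clopper-Pearson intervals for ratios, both at 95%. Since reads amplified by PCR are not independent molecules, these and the 3-read limit describe counting error alone. Genes called have at least a 2-fold difference on that scale and at least 10 CPM in either library, and list members at least 4 reads in either. The procedure was tested on simulated data.

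The 7 genes and the 18 gene lists were chosen with earlier results of these data known. Named list genes are the 4 with the largest RA difference in GFP-positive cells among those of at least 10 CPM in any library. Outside this rule, markers with no reads in a library, the sort markers NKX2-5 and TNNT2 and 1 receptor are also named. The 3 genes of most similar pattern are named for each of the 7 genes. Some genes that these rules select are not reported here. PECAM1 of the endothelial list was not analysed here. Alternatives were 5 other scalings (among them DESeq2 1.42.0 size factors), pseudocounts of 0.25 and 5 CPM, and libraries thinned to 4371101 reads. Counts were also taken with minimums of 1 CPM or none and at 4-fold. Scaling to 16 cardiomyocyte markers and omitting the pseudocount were added after the data were seen.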

Additional observations from a re-analysis of the deposited data

Results flagged for a closer look

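The 4 genes named here differed in opposite directions with RA or between the sorted fractions, and none of these differences was tested, since each condition has 1 library. For RA minus CTR, GRB14 was at -2.84 in the GFP-positive fraction and 0.53 in the GFP-negative one, a gap of -3.36, but the interval of the ratio in GFP-negative cells included 1. PRDM16 was at -1.75 and 0.29, a gap of -2.04. XDH was at -0.62 and 1.13, a gap of -1.75, with 4 reads in CTR GFP-negative cells. For GFP-positive minus GFP-negative cells, GRB14 was at 2.12 in CTR and -1.25 with RA, a gap of 3.36, TNFRSF19 at 1.40 and -0.77, a gap of 2.17, and XDH at 1.40 and -0.35, a gap of 1.75, where the interval of the RA ratio included 1. For GRB14 and XDH these are the same gaps as between the fractions, with the sign turned, and no further observation. Each gap of GRB14 and TNFRSF19 contains the RA difference in GFP-positive cells by which these genes were chosen, so that a large gap was built in.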

How the results depend on the processing

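Of 28 differences (7 genes in 4 comparisons), 26 kept their direction under every alternative run. HOPX in GFP-negative cells, at 0.00, ranged from -0.12 to 0.51, and LBH in these cells, at -0.50, was at 0.04 when scaled to the cardiomyocyte markers, which shifted the median of all genes there from 0.08 to 0.63. The same scaling took TNFRSF19 in these cells from -0.56 to -0.01 and PRDM16 from 0.29 to 0.83. Scaled by library size alone, PRDM16 was at 0.16 there. In GFP-positive cells GADL1 ranged from -4.30 without a pseudocount to -2.63 with 5 CPM, GRB14 likewise from -3.81 to -1.57, TNFRSF19 from -2.81 to -2.57, PRDM16 from -1.82 to -1.58, LBH from -1.13 to -0.88, XDH from -0.84 to -0.31 and HOPX from 0.19 to 0.43. The low genes also moved by over 1.5 times elsewhere, mostly with the pseudocount. In GFP-negative cells GADL1 ranged from -2.19 to -0.38, XDH from 0.46 to 1.84 and GRB14 from 0.25 to 0.93. Between fractions in CTR cultures GRB14 ranged from 1.30 to 2.56 and XDH from 0.60 to 2.19, and in RA cultures GADL1 from 0.34 to 2.03, GRB14 from -1.97 to -0.53 and XDH from -0.68 to -0.17. At 4-fold, 3 genes in place of 5 were lower with RA in GFP-positive cells. In GFP-negative cells 1 gene (GADL1, on 10 and 12 reads) in place of 0 was at least 2-fold lower with a minimum of 1 CPM or with none. The other counts stayed within 1.5 times. Scaling by library size alone moved the median of all genes in GFP-negative cells from 0.08 to -0.06. No paired analysis was made. As each condition has 1 library, the comparisons within a culture or fraction leave no residual degrees of freedom. A fraction effect averaged over both cultures was not fitted. Depth limits GADL1, GRB14 and XDH in CTR GFP-negative cells, with 10, 10 and 4 reads.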
